A study of Homo sapiens with 36 samples.

Results

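Aminoacyl-tRNA synthetases join each amino acid to its tRNA, and 35 of their genes were followed through camptothecin treatment in cells with and without SLFN11. The genes were taken by name from a list of 19 cytosolic enzymes and 16 mitochondrial enzymes, with older symbols that lack the trailing 1 accepted, and all 35 of 35 were measured among 22260 genes on the arrays. The series examined how loss of SLFN11, a nuclear Schlafen protein that acts at stressed replication forks, alters the RNA response to camptothecin, an alkaloid that locks topoisomerase I in its cleavage complex with DNA. The cells were DU145 (prostate carcinoma) and CCRF-CEM (T-cell acute lymphoblastic leukaemia), both established human lines. Of each there were SLFN11 knockout cells and the SLFN11-proficient parent, grown in RPMI1640 with serum. Either genotype was sampled as a control and once 6 h or 12 h had passed with camptothecin at 250 nM, which makes 12 groups of 3 arrays and 36 arrays in all. Each line has 1 kind of knockout cell, and whether that is clonal or pooled is not in the labels, so loss of SLFN11 and the origin of those cells cannot be told apart. The harvest time of the control cells is not given, and nothing in the labels says that the 3 arrays of a group came from separate cultures, so the p-values measure the spread between these arrays only.

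The cytosolic enzymes charge tRNAs for the ribosomes of the cytosol, and the mitochondrial enzymes, which are encoded in the nucleus by separate genes, charge tRNAs for the few proteins made inside mitochondria. GARS1 and KARS1 each make both the cytosolic and the mitochondrial form of their enzyme. Several cytosolic enzymes sit in a multisynthetase complex held together by the scaffold proteins AIMP1, AIMP2 and EEF1E1. Many cytosolic synthetase genes are targets of the transcription factor ATF4, which is made when uncharged tRNA or other stress leads to phosphorylation of eIF2, and which binds C/EBP-ATF response elements in their promoters. Mitochondrial synthetase genes as a class are not known for that control.

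The core of that response element, TGATGNAA, was searched on both strands in RefSeq promoter windows (assembly GRCh38.p14, from 250 bases before to 50 after a start), where its other strand reads TTNCATCA. It was present in 3.62% of 35116 windows of the table and, by gene, in 4.46% of 27305 genes. Of the 12 cytosolic genes listed as amino acid response synthetases 10 had a window and 7 of these held the letters, AARS1, CARS1, GARS1, IARS1, MARS1, NARS1 and TARS1. Of the 7 other cytosolic genes 6 had a window and 0 held them, and of the mitochondrial genes 14 had a window and 1, YARS2, held them. LARS1, VARS1, YARS1, AARS2 and VARS2 had no window in the table. The stretches around 5 matches are shown. Of these genes 3 (AARS1, CARS1 and MARS1) passed as higher in at least 1 comparison of SLFN11-proficient cells. The other 2 (IARS1 and NARS1), with the same letters, passed as higher in none. NARS1 averaged 12.70 at 6 h in CCRF-CEM parent cells, against 12.45 in control arrays, and did not pass. All stretches are written 5′ to 3′ on the strand of the gene with the matching letters in capitals. GARS1 and TARS1, whose matches are not shown, did not pass with camptothecin in parent cells of either line. The AARS1 stretch is chr16:70289660-70289719 on the minus strand, the CARS1 stretch chr11:3057399-3057451 on the minus strand, the MARS1 stretch chr12:57488038-57488092 on the plus strand, the IARS1 stretch chr9:92293677-92293736 on the minus strand and the NARS1 stretch chr18:57621812-57621848 on the minus strand.
AARS1: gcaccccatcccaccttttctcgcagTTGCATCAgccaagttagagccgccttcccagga
CARS1: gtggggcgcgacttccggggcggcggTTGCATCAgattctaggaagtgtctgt
MARS1: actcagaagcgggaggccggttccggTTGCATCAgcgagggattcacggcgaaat
IARS1: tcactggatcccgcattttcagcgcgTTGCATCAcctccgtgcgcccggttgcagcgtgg
NARS1: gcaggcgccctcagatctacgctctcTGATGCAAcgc
Counted from the start, the match began at -187 in AARS1, at -2 in CARS1, at -4 in MARS1, at -13 in IARS1 and at 14 in NARS1. SARS1, which also rose, had windows without the letters. Of 6 stress genes known for the same control 2, ASNS and CHAC1, held the letters. ATF4, DDIT3, SESN2 and TRIB3 had windows without them. The lists were chosen with earlier results of these data known, so these shares are descriptions only. A match describes letters in the window and does not show binding.

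The values are log2 probe-set signals as the authors deposited them, and each gene is represented by its brightest probe set that carries that gene's symbol alone. Array medians lay between 4.78 and 4.86, arrays of the same group correlated at 0.979 to 0.988 over genes, and no array stood apart from its group. In untreated parent cells the line labels were borne out by their markers. KRT8, KRT18, EPCAM and CDH1 were higher in DU145 by log2 differences of 3.41 to 4.30. CD3E, CD3D, CD7 and LCK were higher in CCRF-CEM (DU145 minus CCRF-CEM, -5.49 to -2.73). EPCAM was also higher in untreated CCRF-CEM knockout than parent cells, by 2.15 ± 0.25 (SE), at 9.018 against 6.865. Untreated DU145 knockout cells were lower in CDH1 than parent cells (-1.06 ± 0.13) and higher in KRT8 (0.54 ± 0.14). Among markers of other lineages COL1A1 read 11.26 in DU145 and 11.19 in CCRF-CEM untreated parent cells. DCN, VWF, MS4A1, CD14 and LYZ read 3.71 to 8.87 there. The brightest probe set of SLFN11 did not pass in either line when untreated knockout cells were set against parent cells (difference 0.41 ± 0.17 in DU145 and 0.34 ± 0.12 in CCRF-CEM, SE). Of its 11 probe sets 3 were lower and 2 higher in DU145 knockout cells, and 1 was lower in CCRF-CEM knockout cells. The same probe set gave the lowest difference in both lines, -2.85 ± 0.47 (adjusted p = 0.00649) in DU145 and -1.07 ± 0.14 (adjusted p = 0.00233) in CCRF-CEM. The position of the edit is not given in the labels.

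Of the 12 cytosolic synthetase genes of the amino acid response AARS1 and SARS1 rose with camptothecin at both times in parent cells of both lines. In DU145 parent cells 5 rose at 6 h (AARS1, CARS1, MARS1, SARS1 and YARS1) and 4 at 12 h (AARS1, CARS1, SARS1 and YARS1), and in DU145 knockout cells 0 passed at 6 h and 1, MARS1, rose at 12 h (0.34 ± 0.10, a call kept in 0 of 6 fits that each left out 1 array). A gene passed at a Benjamini-Hochberg adjusted p below 0.05 in limma, taken over all 22260 genes. Over all 35 genes the counts were 9 (7 higher, 2 lower) at 6 h and 6 (5 higher, 1 lower) at 12 h in DU145 parent cells, where 10.1% (5.67% higher, 4.42% lower) and 7.69% (3.80% higher, 3.89% lower) of all genes passed. In DU145 knockout cells they were 5 (3 higher, 2 lower) at 6 h and 8 (6 higher, 2 lower) at 12 h, where 8.72% (5.32% higher, 3.39% lower) and 10.0% (6.31% higher, 3.72% lower) of all genes passed. With arrays set to equal medians of 10 housekeeping genes the counts higher and lower were 3 and 3 at 6 h and 2 and 6 at 12 h in parent cells, and 0 and 1, then 2 and 1, in knockout cells, while the median of all genes in parent cells moved from 0.04 to -0.09 at 6 h and to -0.11 at 12 h. Of those 10 housekeeping genes 2 to 3 passed themselves in each of these comparisons. With cyclic loess they were 5 and 3, then 4 and 3, in parent cells and 3 and 2 at 12 h in knockout cells. Since RNA of the whole culture was measured and scaled to a common level, fewer cells of one kind and less RNA per cell cannot be told apart.

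AARS1 makes alanyl-tRNA synthetase. In DU145 knockout cells its log2 level was 10.80, 10.74 and 10.61 in control arrays, 10.53, 10.30 and 10.46 at 6 h and 10.67, 10.86 and 10.71 at 12 h. In DU145 parent cells it was 10.38, 10.72 and 10.65 in control arrays, 11.05, 11.19 and 11.33 at 6 h and 11.20, 11.25 and 11.16 at 12 h. Every treated parent array lay above every other DU145 array, knockout arrays included. The difference from control in parent cells was 0.60 ± 0.12 (SE) at the earlier time, with an adjusted p of 0.0035, and 0.62 ± 0.12 at the later one, with an adjusted p of 0.00385. In knockout cells it was -0.29 at 6 h and 0.03 at 12 h. The parent change minus the knockout change was 0.89 ± 0.16 at 6 h, with an adjusted p of 0.0138. That was the only synthetase gene of 35 to pass this contrast at 6 h in DU145, where 1.11% of all genes passed (0.782% higher, 0.332% lower), and with the housekeeping scaling its value was 0.78 with an adjusted p of 0.05, which no longer passed. Of the 20 probe sets of AARS1, tested among all 352859, 17 rose at 6 h and 15 at 12 h in DU145 parent cells, and 0 passed in knockout cells.

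Of the other 11 genes of the list 4 rose in DU145 parent cells at 1 or both times. SARS1, seryl-tRNA synthetase, averaged 9.90 ± 0.09 in knockout arrays at 6 h and 10.06 ± 0.04 at 12 h, against 9.89 ± 0.18 in knockout control arrays, and averaged 10.38 ± 0.03 and 10.45 ± 0.03 in parent arrays at these times, against 9.85 ± 0.07 in parent control arrays (SD, n = 3 each). Its differences in parent cells were 0.53 ± 0.10 and 0.61 ± 0.10. YARS1, tyrosyl-tRNA synthetase, rose by 0.49 and 0.42, CARS1, cysteinyl-tRNA synthetase, by 0.44 and 0.46, and MARS1, methionyl-tRNA synthetase, by 0.44 at 6 h. Both CARS1 calls were kept in 0 of 6 fits that each left out 1 array and in 4 of 8 other ways of processing, with adjusted p up to 0.303 at 6 h and 0.294 at 12 h. None of these passed the difference between genotypes in DU145, where SARS1 gave 0.52 ± 0.14 at 6 h (adjusted p = 0.0933) and YARS1 0.45 ± 0.14 (adjusted p = 0.15). GARS1, LARS1, NARS1, TARS1, WARS1, EPRS1 and IARS1, the remaining members of the list, did not pass at either time in DU145 cells of either genotype, and the estimates at 12 h in parent cells were below 0 for LARS1 and IARS1. The median difference over the 12 genes was 0.00 at both 6 h and 12 h in knockout cells and 0.26 and 0.24 in parent cells, beside 0.04 over all genes at both times in both genotypes. Over the 16 mitochondrial genes it was 0.205 and 0.024 in knockout cells and 0.184 and 0.112 in parent cells. The list was chosen with earlier results of these data known, so these medians are descriptions only.

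**Figure D1:**
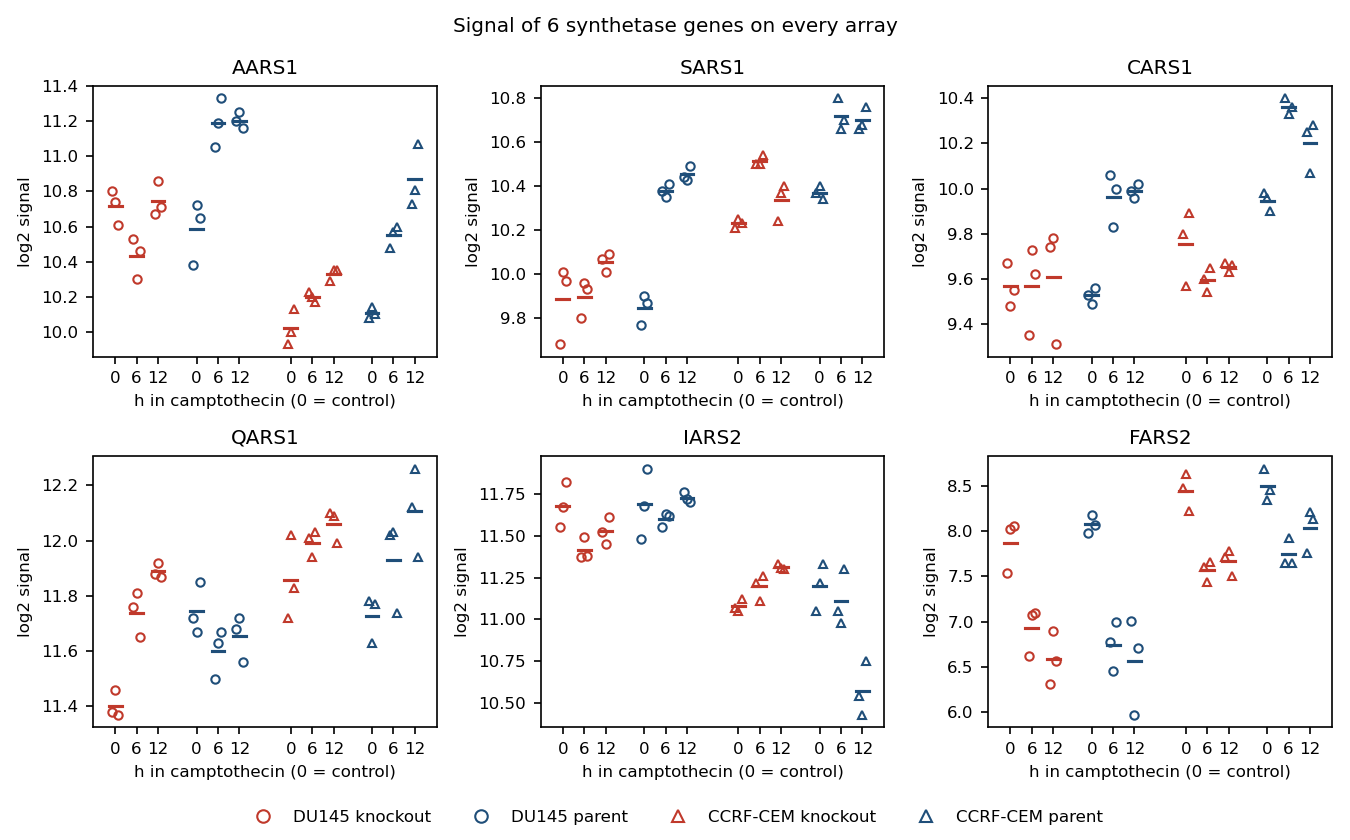
Log2 signal of AARS1, SARS1, CARS1, QARS1, IARS2 and FARS2 on each of the 36 arrays (vertical axes, each panel with its own scale) against hours in camptothecin, with control arrays at 0. Points are arrays and bars are means of 3; circles are DU145, triangles CCRF-CEM, red knockout and blue parent. AARS1, SARS1 and CARS1 are high in treated parent arrays, QARS1 is low in DU145 knockout control arrays, IARS2 is low in CCRF-CEM parent arrays at 12 h, and FARS2 is low in every treated group.

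In CCRF-CEM parent cells genes of this list rose at 6 h, and at 12 h some rose and some fell. In knockout cells 1 of the 12 rose at 6 h (SARS1, 0.29 ± 0.08) and 0 passed at 12 h. The SARS1 call there was kept in 0 of 6 fits that each left out 1 array and in 3 of 8 other ways of processing. In parent cells 4 rose at 6 h (AARS1, CARS1, SARS1 and YARS1), and at 12 h 2 rose (AARS1 and SARS1) and 2 fell (EPRS1 and IARS1). The YARS1 call was likewise kept in 0 of 6 such fits and in 3 of 8 other ways of processing. Over all 35 genes 3 (2 higher, 1 lower) passed at 6 h and 4 (1 higher, 3 lower) at 12 h in knockout cells, where 6.44% (3.52% higher, 2.92% lower) and 8.21% (5.40% higher, 2.81% lower) of all genes passed. In parent cells 8 (5 higher, 3 lower) passed at 6 h and 12 (3 higher, 9 lower) at 12 h, where 12.4% (7.36% higher, 5.06% lower) and 16.8% (9.51% higher, 7.30% lower) of all genes passed. That split depends on the scaling. With arrays set to equal housekeeping medians, which moved the median difference of all genes from 0.00 to 0.17, 5 were higher and 2 lower in parent cells at 12 h, and in knockout cells at 6 h, where it moved that median from 0.04 to -0.22, 0 were higher and 5 lower. Of the 10 housekeeping genes 6 passed themselves in parent cells at 12 h, with EMC7 and REEP5 higher and GPI, PSMB2, SNRPD3 and VPS29 lower by differences of -0.50 to -0.36, and 0 passed in knockout cells at 6 h. The counts higher and lower were then 1 and 1 in parent cells at 6 h and 1 and 1 in knockout cells at 12 h, and with cyclic loess 0 and 1 in knockout cells at 6 h.

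The level of AARS1 in CCRF-CEM knockout cells was 9.93, 10.00 and 10.13 in control arrays, 10.23, 10.20 and 10.17 at 6 h and 10.29, 10.35 and 10.35 at 12 h. In CCRF-CEM parent cells it was 10.08, 10.14 and 10.10 in control arrays, 10.48, 10.57 and 10.60 at 6 h and 10.73, 10.81 and 11.07 at 12 h. Treated arrays lay above control arrays in both genotypes without overlap, and the parent arrays lay higher at both times. The differences were 0.18 at 6 h and 0.31 ± 0.09 at 12 h (adjusted p = 0.0541) in knockout cells, which did not pass, and in parent cells 0.45 ± 0.09 at 6 h, with an adjusted p of 0.00534, and 0.76 ± 0.09 at 12 h, with 5.22e-05. The genotype difference of AARS1 at 12 h, 0.45 ± 0.13, did not pass (adjusted p = 0.0507). In parent cells 7 of its 20 probe sets rose at 6 h and 19 at 12 h.

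CARS1 was the gene that passed the genotype difference at 6 h in CCRF-CEM, 1 of 35 where 2.23% of all genes passed (1.54% higher, 0.696% lower). Its level in knockout cells was 9.60, 9.54 and 9.65 at 6 h, against 9.80, 9.57 and 9.89 in control arrays. In parent cells it was 10.40, 10.33 and 10.36 at 6 h, against 9.98, 9.96 and 9.90 in control arrays. The treated parent arrays stood above all others, while the knockout arrays overlapped. The parent change minus the knockout change was 0.57 ± 0.13 (adjusted p = 0.0345), and it passed in 1 of the 12 fits that each left out 1 array.

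**Figure D2:**
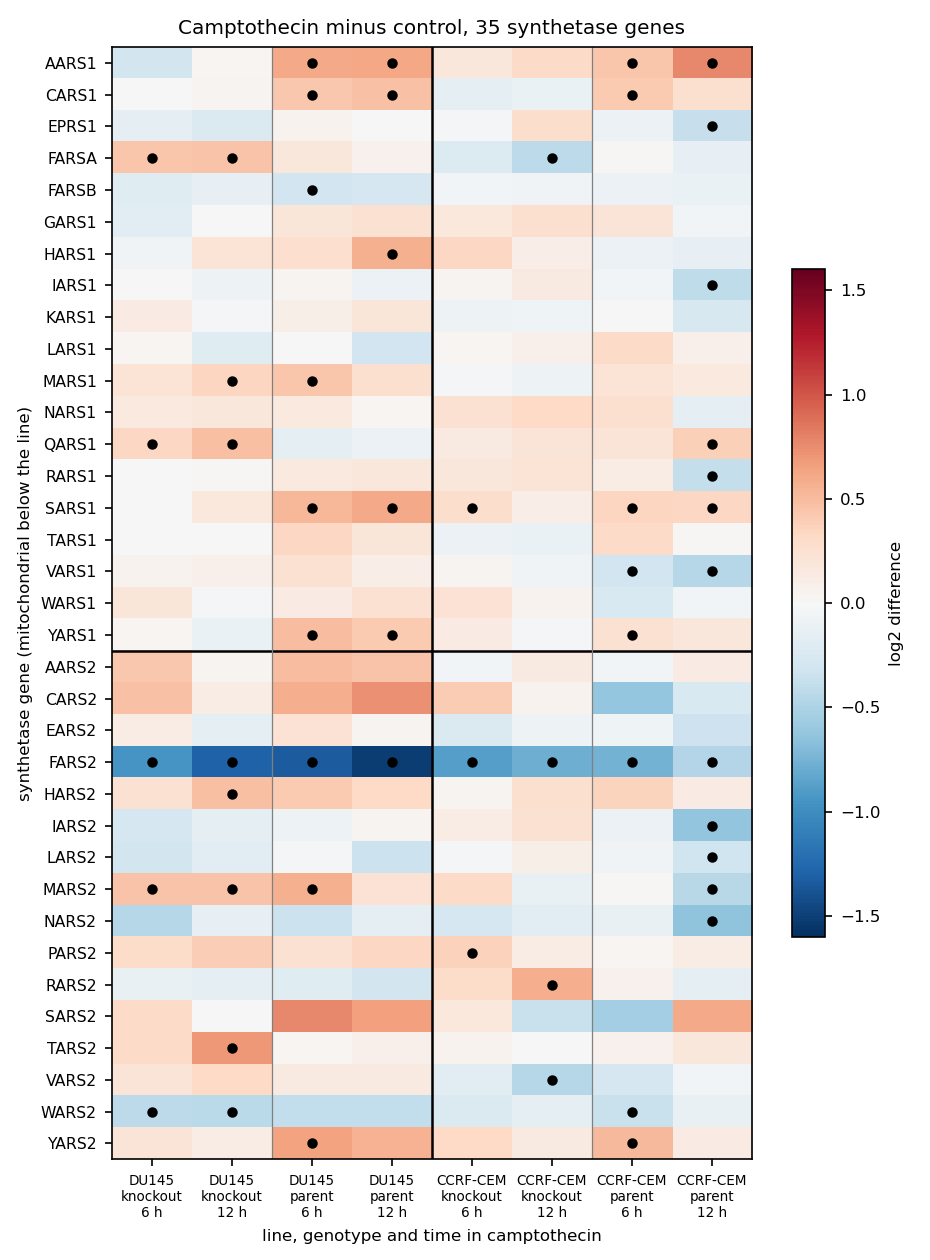
Log2 difference, camptothecin minus control, of the 35 synthetase genes (rows, cytosolic above the line and mitochondrial below it) in each line, genotype and time (columns). Red is higher and blue lower in camptothecin, and a dot marks an adjusted p below 0.05. AARS1 has dots in all 4 parent columns and in no knockout column, and FARS2 has dots in all 8 columns.

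Genes known for the same control were read beside these values. ASNS, asparagine synthetase and a textbook ATF4 target, rose by 1.73 ± 0.13 and 1.52 ± 0.13 at 6 h and 12 h in DU145 parent cells and did not pass in DU145 knockout cells, and it rose by 0.98 ± 0.18 at 12 h in CCRF-CEM knockout cells and by 0.85 ± 0.18 and 0.94 ± 0.18 in CCRF-CEM parent cells. Of the 6 such genes (ASNS, ATF4, CHAC1, DDIT3, SESN2 and TRIB3) 0 passed at 6 h and 1 at 12 h in DU145 knockout cells, against 5 and 5 in DU145 parent cells, all higher. In CCRF-CEM 2 and 2 rose in knockout cells, against 6 and 5 in parent cells. The largest differences among them in DU145 parent cells, 4.04 for DDIT3 and 3.05 for CHAC1 at 6 h, were larger than any of a synthetase gene.

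The 7 cytosolic genes outside the amino acid response list are FARSA, FARSB, HARS1, KARS1, QARS1, RARS1 and VARS1. In DU145 knockout cells FARSA, the alpha subunit of phenylalanyl-tRNA synthetase, rose by 0.45 ± 0.11 at 6 h and at 12 h, and QARS1, glutaminyl-tRNA synthetase, rose by 0.34 ± 0.09 and 0.49 ± 0.09. In fits that each left out 1 array, both FARSA calls were kept in 3 of 6. Those of QARS1 were kept in 1 of 6 at 6 h and in 6 of 6 at 12 h. In DU145 parent cells FARSB, the beta subunit of the same phenylalanine enzyme, fell by 0.31 ± 0.09 at 6 h. The FARSB call was kept in 0 of 6 such fits and in 5 of 8 other ways of processing. HARS1, histidyl-tRNA synthetase, rose by 0.56 ± 0.13 at 12 h in DU145 parent cells, a call kept in 3 of 6 such fits. The HARS1 value rests on its brightest probe set, since the mean of its 16 probe sets differed by -0.04. KARS1, lysyl-tRNA synthetase, passed in no camptothecin comparison.

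QARS1 was the gene of 35 that passed the genotype difference at 12 h in DU145, where 1.13% of all genes passed (0.530% higher, 0.597% lower). Its level in knockout cells was 11.38, 11.46 and 11.37 in control arrays, 11.76, 11.81 and 11.65 at 6 h and 11.88, 11.92 and 11.87 at 12 h. In parent cells it was 11.72, 11.67 and 11.85 in control arrays, 11.50, 11.63 and 11.67 at 6 h and 11.68, 11.72 and 11.56 at 12 h. Knockout control arrays were the lowest of the 18, and treated knockout arrays at 12 h the highest. The parent change minus the knockout change was -0.58 ± 0.13 (adjusted p = 0.0443), and untreated knockout cells were lower than untreated parent cells by a difference of -0.34 ± 0.09. Both values use the same control arrays. The genotype difference passed in 0 of the 12 fits that each left out 1 array, with adjusted p up to 0.106. Of the 31 probe sets of QARS1 12 rose at 12 h in knockout cells.

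In CCRF-CEM 1 cytosolic gene fell at 12 h in knockout cells and 4 fell in parent cells. In knockout cells FARSA had a level of 11.28, 11.17 and 11.00 at 12 h, against 11.45, 11.78 and 11.47 in control arrays, and fell by 0.41 ± 0.12 (adjusted p = 0.0496). The FARSA call was kept in 0 of 6 fits that each left out 1 array and in 5 of 8 other ways of processing. In parent cells VARS1, valyl-tRNA synthetase, IARS1, isoleucyl-tRNA synthetase, RARS1, arginyl-tRNA synthetase, and EPRS1, which charges both glutamate and proline tRNAs, fell by 0.46, 0.41, 0.39 and 0.37 at 12 h, and QARS1 rose by 0.38 ± 0.11. VARS1 had also fallen at 6 h, by 0.30 ± 0.09, a call kept in 1 of 6 such fits and in 3 of 8 other ways of processing. With arrays set to equal housekeeping medians the 4 falls at 12 h kept their sign, at -0.29 for VARS1, -0.24 for IARS1, -0.22 for RARS1 and -0.21 for EPRS1, and none of the 4 passed. When 1 array was left out, the calls at 12 h of VARS1 and IARS1 were kept in 6 of 6 fits. That of RARS1 was kept in 2, and those of EPRS1 and QARS1 in 1 each.

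IARS1, RARS1 and EPRS1 are enzymes of the multisynthetase complex, as are KARS1, LARS1, MARS1 and QARS1 among the genes followed here. Of these 7, 0 passed at 6 h or 12 h in CCRF-CEM knockout cells, and in parent cells 0 passed at 6 h and 4 at 12 h, 1 higher and 3 lower, where 8.21% of all genes passed at 12 h in knockout cells and 16.8% in parent cells (9.51% higher, 7.30% lower). The median difference of the 7 at 12 h was 0.14 in knockout cells and -0.25 in parent cells, beside 0.00 over all genes in each. IARS1 had 21 of 37 probe sets lower at 12 h in parent cells, RARS1 8 of 20 and EPRS1 7 of 35, tested among all probe sets, of which 3.28% were lower.

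The difference between genotypes at 12 h in CCRF-CEM passed for 6 of the 35 genes, where 7.91% of all genes passed (3.63% higher, 4.28% lower), and all 6 values, as the parent change minus the knockout change, were below 0. With arrays set to equal housekeeping medians, which moved the median of all genes from 0.01 to 0.27, 2 genes were higher and 1 lower, and the gene that was lower was IARS2. With cyclic loess 1 was higher and 5 were lower. For EPRS1 the level in knockout cells was 11.45, 11.67 and 11.82 at 12 h, against 11.36, 11.31 and 11.42 in control arrays, and in parent cells it was 11.10, 11.17 and 11.20, against 11.43, 11.69 and 11.48 in control arrays. The treated arrays were the higher ones in knockout cells and the lower ones in parent cells, and the difference between the changes was -0.66 ± 0.16 (adjusted p = 0.0223). That difference passed in 9 of the 12 fits that each left out 1 array.

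For RARS1 the level in knockout cells was 11.31, 11.41 and 11.40 at 12 h, against 11.03, 11.14 and 11.29 in control arrays, and in parent cells it was 10.66, 10.66 and 10.76, against 10.97, 11.09 and 11.18 in control arrays. The parent arrays at 12 h were the lowest of the 18 CCRF-CEM arrays, with a genotype difference of -0.60 ± 0.15 (adjusted p = 0.0239). The RARS1 genotype difference passed in 6 of the 12 fits that each left out 1 array. IARS1 had 11.71, 11.73 and 11.86 at 12 h in knockout cells, against 11.60, 11.67 and 11.62 in control arrays, and 11.40, 11.37 and 11.43 in parent cells, against 11.81, 11.75 and 11.86 in control arrays. The IARS1 groups were separate within each genotype and lay in opposite order, with a genotype difference of -0.55 ± 0.12 (adjusted p = 0.0101).

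NARS1, asparaginyl-tRNA synthetase, had 12.64, 12.70 and 12.88 at 12 h in knockout cells, against 12.30, 12.50 and 12.50 in control arrays, and 12.29, 12.33 and 12.26 in parent cells, against 12.38, 12.52 and 12.47 in control arrays. Neither change passed within a genotype, and the genotype difference of -0.48 ± 0.13 did (adjusted p = 0.0427), though in only 2 of the 12 fits that each left out 1 array. The remaining 2 genes of the 6, IARS2 and RARS2, are mitochondrial and are described with their class.

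**Figure D3:**
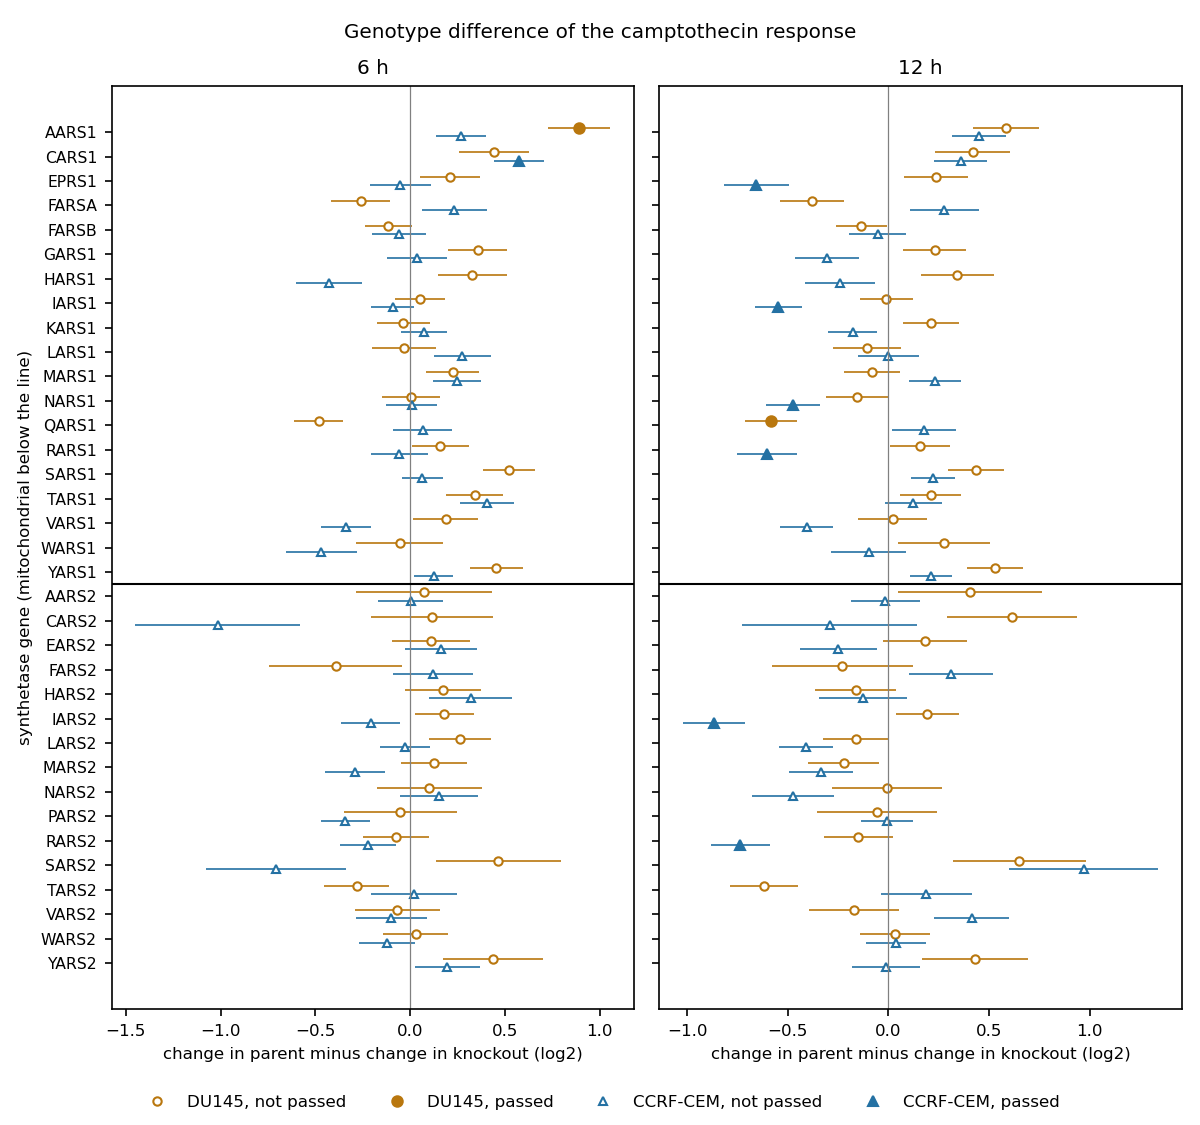
Parent change with camptothecin minus the knockout change (log2, horizontal axis) for the 35 genes at 6 h and 12 h, with DU145 as circles and CCRF-CEM as triangles. Bars are the SE from limma, and filled symbols passed at an adjusted p below 0.05. At 6 h AARS1 passed in DU145 (0.89) and CARS1 in CCRF-CEM (0.57), and at 12 h QARS1 passed in DU145 (-0.58) and 6 genes, all below 0, in CCRF-CEM.

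Among the mitochondrial genes FARS2, the mitochondrial phenylalanyl-tRNA synthetase, fell in all 8 camptothecin comparisons, though 2 of these calls were not stable. That in CCRF-CEM parent cells at 12 h was kept in 2 of 6 fits that each left out 1 array and in 4 of 8 other ways of processing, with adjusted p up to 0.28, and that in DU145 knockout cells at 6 h in 2 of 6 and 7 of 8. Its level in DU145 knockout cells was 7.54, 8.02 and 8.06 in control arrays, 6.62, 7.07 and 7.10 at 6 h and 6.31, 6.90 and 6.56 at 12 h. In DU145 parent cells it was 7.98, 8.18 and 8.07 in control arrays, 6.78, 6.45 and 7.00 at 6 h and 7.01, 5.97 and 6.71 at 12 h. No treated array reached the lowest control array of its genotype. The differences were -0.94 ± 0.25 at 6 h, with an adjusted p of 0.0276, and -1.29 ± 0.25 at 12 h, with 0.00407, in knockout cells. They were -1.33 ± 0.25 at 6 h, with an adjusted p of 0.00272, and -1.52 ± 0.25 at 12 h, with 0.00137, in parent cells.

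In CCRF-CEM knockout cells FARS2 had 8.48, 8.63 and 8.22 in control arrays, 7.60, 7.44 and 7.66 at 6 h and 7.71, 7.78 and 7.51 at 12 h. In CCRF-CEM parent cells it had 8.69, 8.35 and 8.46 in control arrays, 7.65, 7.93 and 7.65 at 6 h and 7.76, 8.21 and 8.14 at 12 h. Treated and control arrays were again separate in each genotype, and at 12 h the parent arrays lay closest to their controls. At 6 h and 12 h the differences were -0.88 ± 0.15 and -0.78 ± 0.15 in knockout cells, with adjusted p of 0.00289 and 0.00568. In parent cells they were -0.76 ± 0.15 and -0.46 ± 0.15, with adjusted p of 0.00339 and 0.0442. The genotype difference of FARS2 did not pass in either line at either time, with values between -0.39 and 0.31. Of its 10 probe sets 2 to 5 were lower in each of the 8 comparisons and 0 were higher.

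FARS2 is also the longest of the 35 genes, 521.6 kb on chromosome 6 (5249934 to 5771583 in GRCh38.p14). LARS2, NARS2 and WARS2, the mitochondrial enzymes for leucine, asparagine and tryptophan, follow with 160.8, 138.9 and 109.5 kb, and the other 31 genes, of 3.0 to 89.2 kb, are shorter than 100 kb, a length chosen after the values were seen. WARS2 fell by 0.42 and 0.43 at 6 h and 12 h in DU145 knockout cells and by 0.35 at 6 h in CCRF-CEM parent cells. These values rest on its brightest probe set, since the mean of its 11 probe sets differed by -0.13, -0.15 and -0.07, none of which passed, and the calls were kept in 1, 2 and 2 of 6 fits that each left out 1 array. NARS2 and LARS2 fell by 0.65 and 0.32 at 12 h in CCRF-CEM parent cells, and the LARS2 call was kept in 2 of 6 such fits. The estimates of the 4 long genes were below 0 in 7 of the 8 comparisons without exception and for 3 of the 4 in CCRF-CEM knockout cells at 12 h.

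Across the 35 genes Spearman's rho between gene length and the difference from control was -0.75 and -0.82 at 6 h and 12 h in DU145 knockout cells and -0.55 and -0.51 in DU145 parent cells. In CCRF-CEM it was -0.33 and -0.04 in knockout cells and -0.31 and -0.37 in parent cells. Without FARS2 these values ran from -0.81 to 0.05. These are descriptions across genes, which share arrays and are not independent replicates. Over 17906 protein-coding genes rho lay between -0.21 and -0.04 in the 8 comparisons. Of the 3188 that span at least 100 kb 15.4% were lower at 12 h in DU145 knockout cells and 17.2% in DU145 parent cells, against 1.85% and 1.80% of the 14718 shorter ones. The corresponding shares in CCRF-CEM were 8.19% in knockout cells and 12.8% in parent cells, against 2.05% and 7.37% of the shorter ones.

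**Figure D4:**
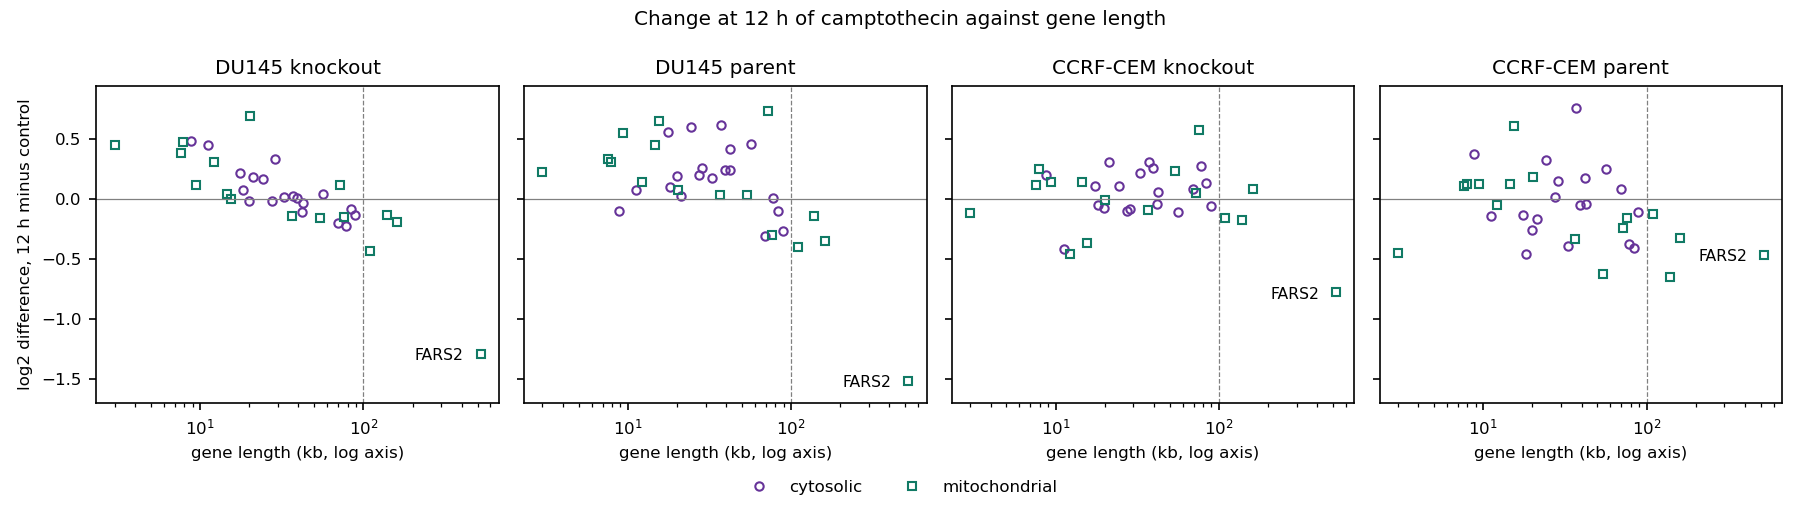
Log2 difference at 12 h minus control (vertical axis) against gene length (horizontal log axis) for the 35 genes, 1 panel for each line and genotype, with cytosolic genes as circles and mitochondrial genes as squares. The 4 points right of the dashed line at 100 kb are, from left to right, WARS2, NARS2, LARS2 and FARS2. FARS2 lies lowest in both DU145 panels (-1.29 in knockout and -1.52 in parent cells) and in the CCRF-CEM knockout panel (-0.78).

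Other mitochondrial genes rose in DU145, MARS2 in both genotypes, TARS2 and HARS2 in knockout cells and YARS2 in parent cells. TARS2, the mitochondrial threonyl-tRNA synthetase, had levels of 9.98, 10.07 and 10.02 at 12 h in knockout cells, against 9.51, 9.23 and 9.23 in control arrays, a difference of 0.70 ± 0.12 (adjusted p = 0.00205). In parent cells it had 9.99, 9.87 and 9.89 at 12 h, against 9.96, 9.81 and 9.75 in control arrays, and did not pass. The arrays of both genotypes at 12 h lay in one range, and the knockout control arrays lay below it. The genotype difference of TARS2 at 12 h, -0.62 ± 0.17, did not pass (adjusted p = 0.0929).

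MARS2, the mitochondrial methionyl-tRNA synthetase, had 8.11, 8.28 and 7.76 at 6 h in knockout cells, against 7.63, 7.57 and 7.59 in control arrays. It rose by 0.45 ± 0.12 at 6 h and at 12 h in knockout cells and by 0.57 ± 0.12 at 6 h in parent cells. Each knockout call was kept in 1 of 6 fits that each left out 1 array, and they were kept in 3 and 4 of 8 other ways of processing. The parent call was kept in 6 of 6 and 7 of 8. HARS2, the mitochondrial histidine enzyme, had 8.91, 8.80 and 9.09 at 12 h in knockout cells, against 8.52, 8.42 and 8.44 in control arrays, a difference of 0.47 ± 0.14 (adjusted p = 0.0478). The HARS2 call was kept in 0 of 6 left-out fits and in 4 of 8 other ways of processing. YARS2, the mitochondrial tyrosine enzyme and the one with the response element letters in its promoter window, had 8.56, 8.93 and 9.06 at 6 h in DU145 parent cells, against 8.10, 8.54 and 7.99 in control arrays, and 9.16, 9.06 and 9.24 at 6 h in CCRF-CEM parent cells, against 8.48, 8.68 and 8.74 in control arrays. Its differences were 0.64 ± 0.19 (adjusted p = 0.0425) and 0.52 ± 0.12 (adjusted p = 0.01), and it passed in no knockout comparison. The DU145 call was kept in 2 of 6 left-out fits and 4 of 8 other ways of processing, the CCRF-CEM call in 5 and 6. Knockout means at 6 h were 8.56 against 8.36 in DU145 controls and 8.81 against 8.48 in CCRF-CEM controls. The genotype difference of YARS2 did not pass in either line.

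IARS2, the mitochondrial isoleucyl-tRNA synthetase, fell in CCRF-CEM parent cells at 12 h and kept that call under every alternative tried. Its level in knockout cells was 11.07, 11.05 and 11.12 in control arrays, 11.22, 11.11 and 11.26 at 6 h and 11.33, 11.31 and 11.30 at 12 h. In parent cells it was 11.05, 11.22 and 11.33 in control arrays, 11.05, 10.98 and 11.30 at 6 h and 10.54, 10.43 and 10.75 at 12 h. The parent arrays at 12 h stood below all other CCRF-CEM arrays, and the parent arrays at 6 h overlapped their controls. The difference in parent cells at 12 h was -0.63 ± 0.11 (adjusted p = 0.000903), and the parent change minus the knockout change was -0.87 ± 0.15 (adjusted p = 0.00343). Of its 23 probe sets 13 were lower at 12 h in parent cells. IARS2 lies on chromosome 1 at 220094132 to 220148041, and EPRS1 lies on the same chromosome at 219968600 to 220046505.

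NARS2 had 8.84, 9.10 and 9.20 at 12 h in CCRF-CEM parent cells, against 9.52, 9.78 and 9.78 in control arrays, a difference of -0.65 ± 0.15 (adjusted p = 0.00592), and MARS2 fell by 0.45 ± 0.11 in the same comparison. The 5 mitochondrial genes that passed there (FARS2, IARS2, LARS2, MARS2 and NARS2) were all lower, where 16.8% of all genes passed and 7.30% were lower, and 0 of the 16 rose. With the housekeeping scaling the number of lower genes over all 35 was 2 in place of 9, and the median of the 16 was 0.03 in place of -0.14. RARS2, the mitochondrial arginine enzyme, had 11.68, 11.64 and 11.67 at 12 h in knockout cells, against 11.16, 11.05 and 11.05 in control arrays, and 11.03, 11.16 and 10.87 in parent cells, against 11.08, 11.19 and 11.27 in control arrays. Its difference was 0.58 ± 0.10 (adjusted p = 0.00405) in knockout cells and its genotype difference -0.73 ± 0.15 (adjusted p = 0.00736). The median over its 19 probe sets was 0.11 in knockout cells, so the size of that change rests on the brightest probe set. The RARS2 genotype difference was kept in 12 of 12 fits that each left out 1 array. It was kept in 6 of 8 other ways of processing, where its value ran from -0.735 to -0.224.

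PARS2 and VARS2, the mitochondrial enzymes for proline and valine, passed in CCRF-CEM knockout cells at 1 time each. PARS2 had 6.65, 6.59 and 6.74 at 6 h, against 6.19, 6.43 and 6.26 in control arrays, a difference of 0.37 ± 0.09 (adjusted p = 0.026) that lost its call in 6 of 8 other ways of processing. VARS2 had 8.44, 8.62 and 8.53 at 12 h, against 9.13, 8.98 and 8.86 in control arrays, a difference of -0.46 ± 0.13 (adjusted p = 0.047), while the mean of its 26 probe sets differed by 0.01. A further 273 probe sets that carry VARS2 with another symbol were left out. AARS2 and EARS2, the mitochondrial alanine and glutamate enzymes, and CARS2 and SARS2, those for cysteine and serine, passed in no camptothecin comparison. Over the 16 mitochondrial genes the median difference at 12 h was 0.02 in DU145 knockout cells, 0.11 in DU145 parent cells, 0.03 in CCRF-CEM knockout cells and -0.14 in CCRF-CEM parent cells. At 6 h it was 0.205, 0.184, 0.047 and -0.064 in the same order. Over the 19 cytosolic genes the median in that order was 0.012, 0.185, 0.045 and 0.203 at 6 h. At 12 h the cytosolic median was 0.023, 0.192, 0.082 and -0.045.

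The genotype difference itself was compared between the lines, as that of DU145 minus that of CCRF-CEM, in a fit of all 36 arrays. At 6 h 0 of 35 genes passed in limma, where 0.530% of all genes passed (0.211% higher, 0.319% lower). At an unadjusted p under 0.05 there were 8, and with the mean of all probe sets 1 passed. At 12 h 5 passed, where 4.78% of all genes passed (2.09% higher, 2.69% lower). IARS2 with 1.06 ± 0.21, EPRS1 with 0.89 ± 0.22, RARS1 with 0.76 ± 0.20 and IARS1 with 0.54 ± 0.16 were above 0, and QARS1 with -0.76 ± 0.19 was below 0. With arrays set to equal housekeeping medians, which moved the median of all genes from -0.02 to -0.37, 1 was above 0 and 4 below, and of the 5 genes IARS2 (0.71) and QARS1 (-1.11) still passed.

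Without camptothecin the knockout and parent cells of DU145 already differed at 10 of the 35 genes, where 11.4% of all genes passed (6.10% higher, 5.26% lower). With the housekeeping scaling 3 were higher and 6 lower. SARS2, CARS2, HARS1 and RARS1 were higher in knockout cells, and TARS2, FARSA, MARS2, MARS1, QARS1 and FARSB were lower. HARS1 had 9.86, 9.54 and 9.64 in knockout control arrays, against 9.09, 8.95 and 8.76 in parent control arrays, a difference of 0.75 ± 0.13 (adjusted p = 0.00225). SARS2 had 10.25, 10.01 and 9.61, against 9.48, 9.04 and 8.65, and CARS2 had 9.86, 9.57 and 9.44, against 8.96, 9.06 and 8.26, in knockout and then parent arrays. All 3 pairs of groups were separate, yet the mean over all probe sets was -0.16 for SARS2, -0.08 for CARS2 and 0.08 for HARS1. RARS1 was higher by 0.46 ± 0.11, with 18 of its 20 probe sets above 0.

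The 6 genes lower in untreated DU145 knockout cells had differences of -0.51 to -0.32. TARS2, FARSA, MARS2, MARS1 and QARS1 are also the genes other than HARS2 that rose at 12 h in knockout cells, and both comparisons use the same control arrays, so no overlap was tested. In CCRF-CEM 0 of 35 genes passed between untreated knockout and parent cells in limma, where 1.51% of all genes passed (0.993% higher, 0.521% lower). At an unadjusted p under 0.05 there were 2, both lower in knockout cells, and with a variance trend and robust moderation 1 passed. The estimates there ran from -0.38 to 0.33, and 6 of 35 were above 0.

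Untreated parent cells of the lines differed at 19 of the 35 genes, 6 higher and 13 lower in DU145 than in CCRF-CEM, where 37.1% of all genes passed (17.8% higher, 19.3% lower). With the housekeeping scaling, which moved the median of all genes from 0.01 to -0.13, 3 were higher and 16 lower. TARS2 had 9.96, 9.81 and 9.75 in DU145, against 8.87, 8.76 and 8.83 in CCRF-CEM, a difference of 1.02 ± 0.14 (adjusted p = 6.44e-07). MARS2 had 8.03, 8.08 and 7.91, against 8.91, 8.82 and 8.77, a difference of -0.83 ± 0.11 (adjusted p = 6.63e-07), and NARS2 had 8.90, 8.71 and 9.07, against 9.52, 9.78 and 9.78, a difference of -0.80 ± 0.17 (adjusted p = 0.000418), with DU145 first in each. The arrays of the lines were separate for these 3 genes. CARS2 had 8.96, 9.06 and 8.26 in DU145, against 9.61, 9.54 and 9.25 in CCRF-CEM, a difference of -0.71 ± 0.28 (adjusted p = 0.0464), with 1 DU145 array well below the other 2. AARS1 (0.48), IARS2 (0.49), TARS1 (0.41), WARS2 (0.34) and VARS1 (0.32) were also higher in DU145, and 7 cytosolic genes, YARS1, FARSA, SARS1, HARS1, CARS1, MARS1 and IARS1, were among the lower ones, with differences of -0.61 to -0.24.

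Genes that work with the synthetases were followed as lists. Of the 3 scaffold genes of the multisynthetase complex AIMP1 rose by 0.97 ± 0.15 at 6 h and 0.62 ± 0.15 at 12 h in DU145 knockout cells and did not pass in DU145 parent cells, and it rose by 0.37 ± 0.11 (adjusted p = 0.0465) at 6 h in CCRF-CEM parent cells. Untreated DU145 knockout cells were lower in AIMP1 than parent cells by a difference of -1.01 ± 0.15. That value and the knockout rises use the same control arrays. In limma the genotype difference of AIMP1 in DU145 did not pass at 6 h (-0.88 ± 0.21, adjusted p = 0.0576). At 12 h it did not pass either (-0.75 ± 0.21, adjusted p = 0.0929). EEF1E1 fell by 0.79 ± 0.11 at 12 h in CCRF-CEM parent cells, with a genotype difference of -1.08 ± 0.16 (adjusted p = 0.000906), and AIMP2 passed in no camptothecin comparison. Among 4 measured genes for editing or hydrolysis of charged tRNA, DTD2, a deacylase that clears mischarged tRNA, fell by 0.49 at 6 h in DU145 parent cells and by 0.49 at 6 h and 1.05 ± 0.11 at 12 h in CCRF-CEM parent cells, with a genotype difference of -1.26 ± 0.15 (adjusted p = 0.000237), and PTRH2, a peptidyl-tRNA hydrolase, rose by 0.45 at 6 h in DU145 knockout cells and by 0.60 and 0.52 in DU145 parent cells. DTD1, a related deacylase, fell by 0.66 at 12 h in CCRF-CEM knockout cells and by 0.55 at 6 h in CCRF-CEM parent cells.

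Of 8 measured genes for tRNA splicing, end processing and export, TSEN54, a subunit of the tRNA splicing endonuclease, rose by 0.96 and 1.02 in DU145 knockout cells and by 0.57 and 0.39 in DU145 parent cells. In CCRF-CEM TSEN15, another subunit of that enzyme, rose by 0.55 ± 0.11 at 12 h in knockout cells, RTCB, the tRNA ligase, rose by 0.36 ± 0.10 at 6 h in parent cells, and XPO5, a nuclear export receptor, fell by 0.44 ± 0.10 at 12 h in parent cells. SEPSECS, which carries out the last step in making selenocysteine on its tRNA, rose by 0.76 ± 0.13 at both times in CCRF-CEM parent cells. It rose in no DU145 comparison. Of the same list PSTK rose by 1.30 ± 0.32 at 6 h in DU145 knockout cells, and EEFSEC fell by 0.59 ± 0.17 at 12 h in CCRF-CEM knockout cells. GATC, a subunit of the amidotransferase that makes mitochondrial glutaminyl-tRNA, rose by 0.38 ± 0.08 at 6 h in CCRF-CEM parent cells, and the other 3 genes of that list passed in no camptothecin comparison. Of 7 measured elongation factor genes TUFM rose by 0.39 and 0.36 in DU145 knockout cells, TSFM by 0.57 and 0.43 in DU145 parent cells, and TSFM and GFM1 fell by 0.36 and 0.32 at 12 h in CCRF-CEM parent cells.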

How the data were processed

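RNA from 12 groups of 3 samples was hybridised to human transcript arrays after labelling by the GeneChip WT Plus workflow that the labels' protocols name. The authors' deposited values are log2 probe-set signals made with RMA in Partek, per the submitters' processing notes, with versions not given, and they were used as deposited (0.97 to 13.92 over 352859 probe sets and 36 arrays). RMA sets all arrays to a common distribution, so a shift shared by all genes is not measured. For the array annotation a genome build was not given in the sources used here.

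A single symbol was carried by 259224 probe sets, while 13116 carried several and 80519 had none. RefSeq held 20529 of the 22320 symbols as current, and 1713 were updated through a synonym, 17 through an alias of a synthetase gene and 61 were kept. A gene was its single-symbol probe set with the highest mean over all arrays, which gave 22260 genes. Each line was fitted with limma 3.58.1 in R 4.3.3 over its 6 groups, and all 36 arrays together for comparisons of the lines, with Benjamini-Hochberg adjustment over all genes and a threshold of 0.05. Probe sets were tested the same way among all probe sets. Other steps used R's data.table package (1.17.8), Python 3.11.15, pandas 2.3.3, scipy 1.17.1 and matplotlib 3.10.9. The fit was tested on simulated data.

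The synthetase genes and the lists were chosen with earlier results of these data known. Any of the 35 genes could be named, values of every array are given for those that passed and were among the 4 largest differences of a comparison or passed a genotype difference, and other genes are named only from the lists. Precision is limited by the 3 arrays of a group. No pairs of arrays held identical values. The alternatives tried were housekeeping scaling, cyclic loess, each gene as the mean over its probe sets, a minimum mean of 5, a variance trend with robust moderation, a fit of every array at once, a replicate block, the arrays of the compared groups alone, a threshold of 0.01 and leaving out each array.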

Additional observations from a re-analysis of the deposited data

Results flagged for a closer look

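The genotype difference (change in parent cells minus change in knockout cells) at 12 h differed between the lines for 5 synthetase genes, as DU145 minus CCRF-CEM in limma over all 36 arrays. The value was 1.06 ± 0.21 for IARS2 (adjusted p = 0.003), 0.89 ± 0.22 for EPRS1 (adjusted p = 0.0139), 0.76 ± 0.20 for RARS1 (adjusted p = 0.0234), 0.54 ± 0.16 for IARS1 (adjusted p = 0.0444) and -0.76 ± 0.19 for QARS1 (adjusted p = 0.0173). Of the 24 fits that each left out 1 array IARS2, EPRS1 and QARS1 passed in 24, RARS1 in 23 and IARS1 in 4. With the housekeeping scaling IARS2 (0.71) and QARS1 (-1.11) still passed, and EPRS1 (0.54), RARS1 (0.41) and IARS1 (0.19) did not.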

How the results depend on the processing

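Of 98 calls of a synthetase gene in a comparison 83 were kept with cyclic loess, 51 with the housekeeping scaling, 66 with the mean of all probe sets and 31 with only the arrays of the groups compared, and 19 were kept under every alternative and every left-out array. The 19 were FARS2 in DU145 knockout cells at 12 h and in both parents at 6 h, SARS1 in DU145 parent cells at 6 h, AARS1, IARS2 and NARS2 in CCRF-CEM parent cells at 12 h, the genotype and line differences of IARS2 at 12 h and 10 differences between the lines. With the mean of all probe sets the sign turned for HARS1 in DU145 parent cells at 12 h (-0.04), CARS2 (-0.079) and SARS2 (-0.16) in untreated DU145 knockout cells and VARS2 in CCRF-CEM knockout cells at 12 h (0.011). The cause was not tested.

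The number of the 35 genes that passed moved as follows. With only the arrays of the groups compared, which leaves fewer samples, it was at 6 h and 12 h 0 and 1 in DU145 knockout cells, 3 and 0 in DU145 parent cells, 0 and 0 for CCRF-CEM knockout cells and 1 and 5 for the CCRF-CEM parent. It was 0 and 0 for the DU145 genotype difference, 0 for that of CCRF-CEM at 6 h, 0 for untreated DU145 and 12 between the lines. At a threshold of 0.01 it was 0 and 3 in DU145 knockout, 5 and 3 in DU145 parent, 1 and 2 in CCRF-CEM knockout and 4 and 6 in CCRF-CEM parent cells, 0 and 0 for the DU145 and 0 and 2 for the CCRF-CEM genotype difference, 1 for untreated DU145 and 1 for the line difference at 12 h. With the housekeeping scaling it was 1 and 3 in DU145 knockout, 5 and 2 in CCRF-CEM knockout and 2 and 7 in CCRF-CEM parent cells, 0 and 0 for the DU145 genotype difference and 3 for that of CCRF-CEM at 12 h. Cyclic loess gave 5 in DU145 knockout cells at 12 h, 0 for the DU145 genotype difference at 12 h and 1 at 6 h in CCRF-CEM knockout cells. The mean of all probe sets gave 12 in DU145 parent cells at 12 h, 6 and 2 for the DU145 genotype difference, 1 in CCRF-CEM knockout cells at 6 h and 1 and 9 for the line difference. For the DU145 genotype difference 1 fit of all arrays gave 3 and 4, and trend with robust moderation gave 3 and 4, and 1 for untreated CCRF-CEM.

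Same-numbered arrays did not deviate together (residual correlations -0.17 to 0.09 in DU145 and -0.05 to 0.16 in CCRF-CEM), so the numbers are not taken to pair them. With the number as a replicate block 83 of 98 calls were kept and the DU145 genotype difference at 12 h had 0.

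Leaving out each array in turn gave 0 to 3 and 3 to 5 genes in DU145 knockout cells at 6 h and 12 h, 5 to 8 and 3 to 7 in DU145 parent cells, 1 to 2 and 2 to 2 for CCRF-CEM knockout cells and 4 to 6 and 7 to 10 for the CCRF-CEM parent. It gave 1 to 2 and 0 to 0 for the DU145 genotype difference, 0 to 1 and 3 to 6 for that of CCRF-CEM, 4 to 10 for untreated DU145, 0 to 0 for untreated CCRF-CEM, 0 to 0 and 3 to 6 for the line difference and 16 to 19 between the lines. The 0 in DU145 knockout cells at 6 h came without control replicate 3 or 6 h replicate 1, the 3 at 12 h without control replicate 3 or 12 h replicate 2, the 5 and 3 in DU145 parent cells without 6 h replicate 3, and without control replicate 3 or 12 h replicate 1. The 4 for untreated DU145 came without parent replicate 3 or knockout replicate 1, the 4 and 7 in CCRF-CEM parent cells without control replicate 1, and without control replicate 3 or 12 h replicate 1. The 3 for the CCRF-CEM genotype difference at 12 h came without parent control replicate 2 or knockout 12 h replicate 3, and the 3 for the line difference without CCRF-CEM knockout control replicate 1.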
